A study of Homo sapiens with 8 samples.

Results

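The inhibitors of DNA binding, ID1 to ID4, were followed through every probe set that names 1 of the 4 genes alone, which gave 9 of the 54675 probe sets on the array. ID1 and ID3 have 1 such probe set each, ID2 has 2 and ID4 has 5. Expression was measured on 8 Affymetrix arrays of HEL cells, established from a human erythroleukaemia and carrying an activated JAK2, in 4 groups of 2 arrays. In the drug arm, cells received 0.5 µM CEP701 (lestaurtinib, an inhibitor of the kinases JAK2 and FLT3) or its vehicle DMSO for 16 h. In the shRNA arm, cells made stable with a lentiviral pLKO vector expressed a single shRNA against the arginine methyltransferase PRMT5, or a scramble shRNA, and neither group is labelled as treated with drug or vehicle. All groups are labelled as the same cell line, in serum-containing RPMI medium. The labels do not say whether both arms were grown from the same stock of cells, and the vehicle and scramble groups also differ in vector and selection. The labels do not say that replicates came from separate cultures, so every p-value measures only the spread between these arrays, which may be technical.

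ID proteins are helix-loop-helix proteins that lack the basic region with which their relatives contact DNA. They bind the ubiquitous E proteins (TCF3, TCF4 and TCF12) and keep them from pairing with tissue-specific basic helix-loop-helix factors such as TAL1 and LYL1, which direct blood cell development. Their genes are classic direct targets of bone morphogenetic protein (BMP) signalling through SMAD1, SMAD5 and SMAD9, and ID1 is also known as a target of STAT5 downstream of activated kinases in myeloid leukaemia cells. ID genes are usually high in proliferating progenitors, while ID2 also accompanies maturation of several blood lineages.

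The labelled cell line was checked against markers. All 8 erythroid markers measured, and all 8 megakaryocyte markers, exceeded a signal of 60.0 (the median of all signals) on at least 2 arrays. So did 8 of 9 monocyte and granulocyte markers and 7 of 7 lymphocyte markers. The same held for 5 of 6 epithelial and 6 of 8 fibroblast and endothelial markers, by the brightest probe set on the array. The threshold therefore did not tell cell types apart. The arms did not look alike, although they carry the same cell line label. The summed signal of 9 monocyte and granulocyte markers was 5614 to 9419 on the drug-arm arrays and 66365 to 102225 on the shRNA-arm arrays, and that of 8 erythroid markers was 16105 to 20500 against 4988 to 13786. The sum of 8 megakaryocyte markers also separated the arms, at 14469 to 15547 against 49208 to 116082. Lymphocyte and epithelial sums were likewise higher on every shRNA-arm array, and the fibroblast and endothelial sum was lower. Across 26719 tested probe sets, Pearson's r was 0.959 to 0.972 for arrays of the same group, 0.949 to 0.967 for different groups in the same arm and 0.804 to 0.842 for arrays of different arms. MPO, the myeloperoxidase of granulocyte precursors, averaged 31.1 ± 14.6 with DMSO and 18634 ± 2770 with scramble, and the epithelial keratin KRT19 1.64 ± 0.14 and 1657 ± 1216. Other keratins did not follow KRT19: KRT18 averaged 1314.5 ± 75.4 with DMSO and 270.9 ± 4.63 with scramble, and KRT8 91.5 ± 30.7 and 81.3 ± 19.6. Of 5 tested epithelial markers, 3 were higher with scramble and 1, KRT18, was lower. Every difference between the arms is therefore one between cell populations whose shared origin was not tested. PRMT5, the targeted gene, stood at 35.2% to 45.8% of the scramble mean on the PRMT5 shRNA arrays over its 3 probe sets. In such bulk samples, fewer cells of a type and less RNA per cell cannot be told apart.

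The ID genes split into 3 patterns over the 4 groups. ID1 and ID3 were high in the drug arm and low in the shRNA arm, ID2 was the reverse, and ID4 was near background everywhere. The ID1 probe set (208937_s_at) read 5396 and 4838 with DMSO, 672 and 752 with CEP701, 173 and 102 with scramble shRNA, and 177 and 117 with PRMT5 shRNA. The drug-treated arrays lay clear of the vehicle arrays, and both shRNA-arm groups lay below all 4 drug-arm arrays and overlapped each other. The brighter ID2 probe set (201565_s_at) read 5091 and 4361 with DMSO, 4823 and 4921 with CEP701, 27475 and 30503 with scramble, and 23209 and 24546 with PRMT5 shRNA. The other one (201566_x_at) read 1254 and 1108 with DMSO, 1463 and 1281 with CEP701, 11570 and 12424 with scramble, and 8716 and 12036 with PRMT5 shRNA. Both ID2 probe sets thus placed the shRNA-arm arrays above every drug-arm array. The ending x_at marks a probe set whose probes may also bind other transcripts, in the maker's naming. The ID3 probe set (207826_s_at) read 669 and 707 with DMSO, 567 and 461 with CEP701, 14.8 and 24.5 with scramble, and 17.5 and 34.8 with PRMT5 shRNA. All 4 shRNA-arm values of ID3 lay below 60.0.

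For ID4, best known from neural tissue, no probe set gave a clear signal. The highest value over its 5 probe sets and all arrays was 87.1, at 209293_x_at on CEP701 replicate 1. That probe set exceeded 60.0 on 4 arrays, with values of 38.4 to 87.1, and was tested. The 4 others (229386_at, 209291_at, 226933_s_at and 209292_at) stayed at 52.3, 32.4, 29.0 and 21.6 or lower on every array. They failed the filter on low values and were not tested. So 5 of the 9 ID probe sets entered the tests, and the ID4 values give no ground for calling the gene expressed or silent.

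**Figure D1:**
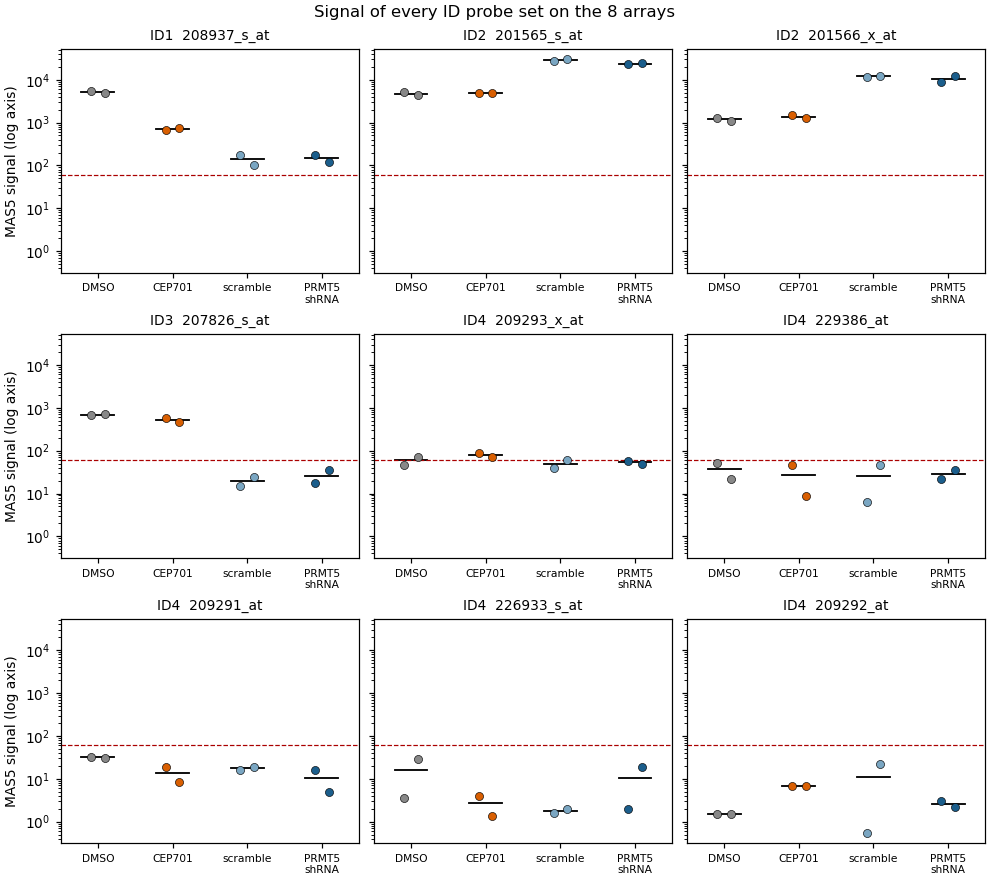
MAS5 signal (log axis) of each of the 9 ID probe sets, with 1 point per array, a bar at the mean of the 2 arrays of a group, and a dashed line at 60.0, the median of all signals. ID1 and ID3 fall from the drug arm to the shRNA arm, both ID2 probe sets rise, and 4 of the 5 ID4 probe sets stay under the line on all arrays.

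The 250 bases before the transcription start of ID1, ID2 and ID3 are given because these are the 3 members whose signal differed between groups. They are RefSeq sequences of build GRCh38.p14, printed 5′ to 3′ on the gene's strand. ID1 lies on the plus strand at chr20:31605039-31605288, ID2 on the plus strand at chr2:8681806-8682055 and ID3 on the minus strand at chr1:23559502-23559751. Capitals mark matches on either strand to CANNTG (the E-box bound by basic helix-loop-helix dimers), CCAAT (the box bound by NF-Y), TATAA (the TATA box) and TTCNNNGAA (the STAT element). In ID1 a TATAA match on each strand overlaps the other.
ID1: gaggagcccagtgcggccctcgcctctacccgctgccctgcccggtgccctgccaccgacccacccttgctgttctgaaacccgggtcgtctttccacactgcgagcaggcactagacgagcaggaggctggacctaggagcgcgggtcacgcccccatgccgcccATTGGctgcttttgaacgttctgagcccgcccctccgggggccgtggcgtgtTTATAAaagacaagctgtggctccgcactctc
ID2: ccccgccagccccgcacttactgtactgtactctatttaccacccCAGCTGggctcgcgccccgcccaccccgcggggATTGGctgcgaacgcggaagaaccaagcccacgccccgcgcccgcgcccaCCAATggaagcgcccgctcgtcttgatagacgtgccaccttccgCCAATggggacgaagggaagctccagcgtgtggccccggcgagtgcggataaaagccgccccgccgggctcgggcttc
ID3: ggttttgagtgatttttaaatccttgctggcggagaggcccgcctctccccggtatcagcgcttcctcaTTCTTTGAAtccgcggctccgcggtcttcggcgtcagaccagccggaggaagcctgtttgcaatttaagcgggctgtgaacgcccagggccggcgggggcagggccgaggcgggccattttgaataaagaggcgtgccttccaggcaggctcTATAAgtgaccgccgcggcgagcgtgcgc
TATAA lies close to the start of ID1 and ID3, its first base at -31 and -29 on the gene's strand, and also of ID4, at -29, whose signal was near background. ID2 holds no TATAA in this window but has CCAAT at 3 positions, and ID1 has 1. The ID2 window also holds the only E-box of the 3. ID3 holds the only STAT element, with its first base at -181. Among 35114 promoter windows of the same length, TATAA occurs in 18.9%, CCAAT in 32.0%, CANNTG in 61.8% and TTCNNNGAA in 6.57%. Of the 2 SMAD motifs searched, the SMAD box CAGAC (38% of windows) was found in ID3 at -147 and in ID4 at -205 but not in ID1 or ID2, and the GC-rich GGCGCC (16.4%) was found in none of the 4. The CREB-type motif TGACG (21.2%) was found in ID3, where it overlaps that CAGAC, and the GC box GGGGCGG (29.3%) in ID1, ID2 and ID4. These last motifs are not in capitals. A match is a description of these letters and not evidence of binding, and elements farther away were not searched.

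The comparison of CEP701 with DMSO asked how the kinase inhibitor changed the ID transcripts within 16 h. ID1 fell 7.10-fold, from 5117 ± 394 to 712 ± 56.6 (SD, n = 2). The log2 difference, taken after adding 10 to each signal, was -2.83 ± 0.27 (SE; limma, adjusted p = 0.00151), and ID1 had the 23rd lowest p of 26719 probe sets. ID1 was the 1 ID probe set of 5 tested that passed, where 4.79% of all tested probe sets passed. It also passed in all 22 alternative calculations, with log2 differences of -3.33 to -2.68 and adjusted p of 1.55e-05 to 0.0487. The highest of these came without CEP701 replicate 1.

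The other members did not pass. ID3, which is often induced together with ID1, averaged 514 ± 74.8 with CEP701 and 688 ± 27.3 with DMSO. Both CEP701 values of ID3 lay below both DMSO values, and its log2 difference of -0.42 had a 95% interval of -1.19 to 0.35 (adjusted p = 0.521). ID2 averaged 4872 ± 69.0 with CEP701 and 4726 ± 516 with DMSO at 201565_s_at, a log2 difference of 0.05 with an interval of -0.25 to 0.34 (adjusted p = 0.870). The wider end of this interval corresponds to about 1.27-fold, but scaling to the poly-A controls put the difference outside it, at -0.45. At 201566_x_at the difference was 0.21, with an interval of -0.18 to 0.61 (adjusted p = 0.521). ID4 at 209293_x_at differed by 0.38, with the wide interval of -0.63 to 1.38 that goes with a signal near background (adjusted p = 0.672). For the actin control, whose 5′ over 3′ signal falls as RNA is degraded, that ratio was lower with CEP701 (0.116 and 0.161) than with DMSO (0.199 and 0.198), while that of GAPDH overlapped (0.787 and 0.856 against 0.882 and 0.809). Their part in these results was not tested.

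Knockdown was set against scramble to ask whether loss of the methyltransferase changed the ID transcripts. No ID probe set passed, where 0.131% of all tested probe sets did (35 at an adjusted p under 0.05, and 1679 at an unadjusted p under 0.05). ID1 averaged 147 ± 42.4 with PRMT5 shRNA and 138 ± 50.1 with scramble, a log2 difference of 0.10 with a 95% interval of -0.51 to 0.72 (limma, adjusted p = 0.998). ID2 averaged 23878 ± 946 against 28989 ± 2141 at 201565_s_at, where both knockdown arrays lay below both control arrays. The log2 difference was -0.28, with an interval of -0.57 to 0.02 (adjusted p = 0.823), and 201566_x_at stood at -0.23 (adjusted p = 0.926) with overlapping groups. ID3 stood at 0.26, with an interval of -0.51 to 1.04 (adjusted p = 0.982), between groups that were both under 60.0, so no fold is given. ID4 at 209293_x_at stood at 0.10, with an interval of -0.90 to 1.10 (adjusted p = 0.998). The actin 5′ over 3′ ratio was higher with PRMT5 shRNA (0.187 and 0.335) than with scramble (0.141 and 0.179). That of GAPDH was lower (0.729 and 0.778 against 0.846 and 0.883). The part of these ratios in the knockdown results was not tested.

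The series sets the drug beside the knockdown, and the ID1 effects differed between them. The CEP701 effect minus the PRMT5 shRNA effect was -2.93 ± 0.39 on the log2 scale for ID1 (SE; limma, adjusted p = 0.0171), and 1.14% of all tested probe sets passed this test. ID1 was the 1 of 5 ID probe sets that did. The knockdown comparison of ID1 started from a scramble mean of 138, against a vehicle mean of 5117 in the drug comparison. The call depended on single arrays: it was lost without CEP701 replicate 1 (adjusted p = 0.139), CEP701 replicate 2 (0.128), DMSO replicate 1 (0.0886) and DMSO replicate 2 (0.117), with differences of -3.01 to -2.85. It was also lost without a variance trend (adjusted p = 0.107). For the 4 other probe sets the difference between the effects was -0.68 at ID3, 0.33 and 0.44 at ID2 and 0.28 at ID4, with adjusted p of 0.384 to 0.864.

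**Figure D2:**
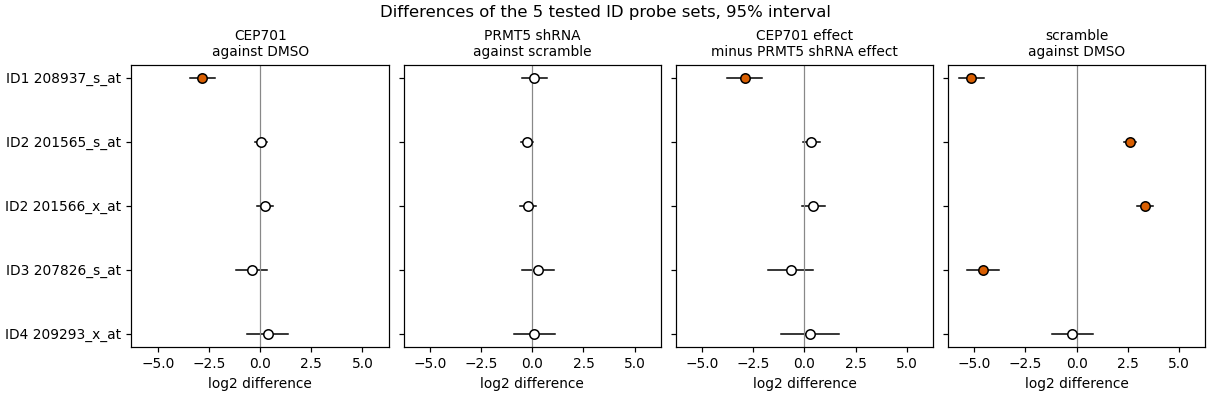
Log2 differences of the 5 tested ID probe sets in 4 comparisons, from signals with 10 added; lines are 95% intervals of the limma fit, and filled points have an adjusted p under 0.05. ID1 is the filled point for CEP701 against DMSO at -2.83, no point is filled for PRMT5 shRNA against scramble, and 4 of the 5 are filled for scramble against DMSO.

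The widest differences lay between the control groups of the arms. Relative to DMSO, scramble cells had ID1 35.7-fold lower (log2 difference -5.16 ± 0.27 SE, limma, adjusted p = 8.95e-07). ID3 was at least 11.5-fold lower, with signals under 60.0 raised to 60.0, and its fitted log2 difference was -4.58 ± 0.35 (adjusted p = 7.49e-06). ID2 was 6.13-fold higher at 201565_s_at (2.62 ± 0.13, adjusted p = 7.06e-07) and 10.1-fold higher at 201566_x_at (3.34 ± 0.18, adjusted p = 8.83e-07). Of the 5 tested ID probe sets 4 passed, and 41.7% of all tested probe sets did. Each of the 4 passed in every alternative that gave a value, 19 for 201566_x_at and 22 for the others. ID4 at 209293_x_at did not pass (log2 difference -0.22, adjusted p = 0.725). The monocyte and granulocyte marker list moved the same way as ID2: all 8 of its tested genes were higher in scramble cells, with a median log2 difference of 7.96, or at least 6.10 with signals under 60.0 raised to 60.0, since 5 of them were under 60.0 on both DMSO arrays. Of the 8 erythroid markers, 2 were higher and 3 lower. Of 5 epithelial markers 3 were higher and 1 lower (median 5.24, or 4.34 with signals raised to 60.0), of 8 megakaryocyte markers 3 and 1 (median 0.49, with a range of -1.25 to 6.03), of 7 lymphocyte markers 2 and 1 (median -0.37), and of 7 fibroblast and endothelial markers 2 and 3 (median -0.15). The part of these markers in the ID differences was not tested, and vector, culture, cell stock and cell state cannot be told apart in this design.

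The levels could be put in order for 3 members. For ID1 the order was DMSO, CEP701, then both shRNA groups, and PRMT5 shRNA cells lay 4.68-fold below CEP701 cells (adjusted p = 1.95e-04, where 32.9% of probe sets passed) while the 2 shRNA groups did not differ beyond their spread. For ID2 the scramble and PRMT5 shRNA groups stood above CEP701 and DMSO. The step from CEP701 up to PRMT5 shRNA was 4.89-fold at 201565_s_at (adjusted p = 1.56e-06) and 7.43-fold at 201566_x_at (adjusted p = 2.06e-06). For ID3 the DMSO and CEP701 groups stood above both shRNA groups, and PRMT5 shRNA cells lay at least 8.52-fold below CEP701 cells, with signals under 60.0 raised to 60.0 (adjusted p = 2.34e-05). The neighbouring steps within an arm did not pass for ID2 and ID3.

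The binding partners of the ID proteins were compared next, from lists chosen with earlier results of these data known, each gene represented by its brightest probe set. Among all 14162 genes so represented, 5.62% passed for CEP701 against DMSO, 3.68% higher and 1.94% lower, with a median log2 difference of 0.10. None of the 3 E proteins passed there (log2 differences of -0.50 to 0.23). Their signals were high in all groups: TCF4 averaged 4822 ± 59.1 with DMSO, 5665 ± 117 with CEP701, 4418 ± 264 with scramble and 4304 ± 790 with PRMT5 shRNA. None of 8 tissue-specific basic helix-loop-helix genes passed (median 0.40, or 0.05 with signals below the median of all signals raised to it). Nor did the brightest probe set of any of 12 genes for partners of the TAL1 complex (median 0.12). For LMO4, a gene of that list, all 5 probe sets were higher with CEP701, by 0.71 to 1.42. Its brightest did not pass (1.05, limma, adjusted p = 0.0535), but 1 of the others did (1.42, adjusted p = 0.0326). None of 9 HES, HEY and BHLHE repressors, a related family of helix-loop-helix repressors, passed either (median 0.55). TAL1 read 8367 and 8919 with DMSO, and 8721 and 8694 with CEP701, so its groups overlapped.

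The BMP pathway, which drives ID genes in many tissues, held 4 genes that rose with CEP701. None of 5 measured BMP ligands (median -0.32, and 0.26 with signals under 60.0 raised to 60.0) and none of 6 SMAD transducers (median -0.09) passed. Of 10 receptors, 2 rose and none fell (median 0.54): ACVRL1, a type I receptor, from 11.3 and 6.87 with DMSO to 69.4 and 117 with CEP701 (1 of its 2 probe sets passed), and AMHR2, the receptor of anti-Müllerian hormone, by 1.18 on the log2 scale. With the DMSO signals of ACVRL1 raised to 60.0, its rise was at least 1.501-fold. Of 13 antagonists and SMAD inhibitors, 2 rose and none fell (median 0.32). SMAD7, which blocks SMAD activation at the receptor and is itself induced by it, read 22.9 and 5.65 with DMSO and 169 and 178 with CEP701, at least 2.89-fold higher with the DMSO signals raised to 60.0. Its fitted log2 difference of 3.01 ± 0.45 (limma, adjusted p = 0.00975) depends on the added 10. SKIL, a corepressor of SMAD proteins, read 692 and 782 with DMSO and 3053 and 2791 with CEP701 (1.97 ± 0.19, adjusted p = 0.00149), while its 2 other probe sets did not pass. Of 11 other transcripts that BMP signalling induces, SMAD7 was the 1 that passed (median 0.40, or 0.23 with signals under 60.0 raised to 60.0). The lowest of the 11 was DLX2, at -0.51, which did not pass. SMAD6, another classic BMP target, read 1166 and 1232 with DMSO and 1834 and 1854 with CEP701, and BAMBI 1972 and 2191 against 2627 and 2567. Neither passed, and both had higher values with the drug. The part of BMP signalling in the fall of ID1 was not tested.

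Factors that act on the ID genes or their proteins gave 5 more calls. Of 13 upstream factors, STAT5B rose by 0.82 (adjusted p = 0.0317; median of the list -0.12), while its 4 other probe sets did not pass. EGR1, an early response factor that can bind the ID1 promoter, read 181 and 132 with DMSO and 48.1 and 101 with CEP701 (log2 difference -1.04, adjusted p = 0.177). Of 16 targets and partners of ID proteins, 2 rose (median 0.31): THBS1, a secreted adhesive protein that ID1 is known to repress, by 4.18 (adjusted p = 0.00111) and ELK3, an ETS factor, by 0.85 (adjusted p = 0.0177). At THBS1 6 of 7 probe sets passed, and at ELK3 1 of 2. The brighter probe set of CCND1, which encodes cyclin D1, did not pass (-1.61, adjusted p = 0.134), but the other fell at least 2.27-fold, with CEP701 signals under 60.0 raised to 60.0 (adjusted p = 0.00797). Of 6 genes for turnover of ID proteins, USP1, a deubiquitinase that stabilises them, fell by 0.82 (adjusted p = 0.0484) and WDR48, its cofactor, rose by 0.73 (adjusted p = 0.0445). Only 1 of 2 USP1 probe sets and 1 of 4 WDR48 probe sets passed, while the others had the same direction. These 9 list calls depended on single arrays: with either CEP701 array left out 2 still passed, with DMSO replicate 1 left out 3 did, and with DMSO replicate 2 left out 2 did. Processing choices also ended calls: 3 passed without a variance trend, 4 under scaling to the poly-A controls, 4 with the mean of probe sets per gene, 5 under quantile normalization, and 6 under median scaling or with no filter. SKIL and THBS1 passed in all 22 alternatives.

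**Figure D3:**
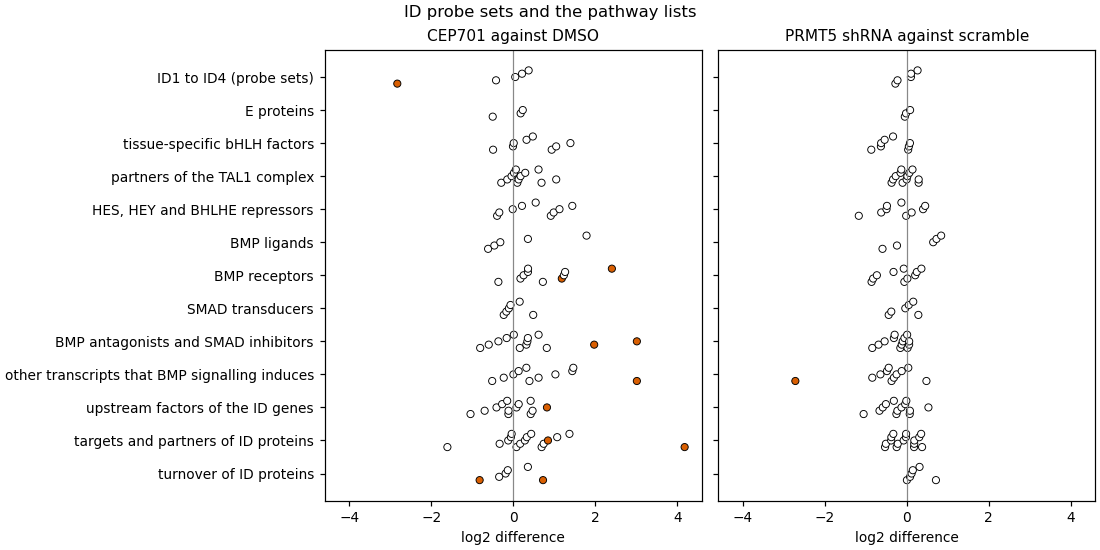
Log2 differences for the 5 tested ID probe sets (top line) and for the genes of 12 pathway lists, 1 point per gene by its brightest probe set, for CEP701 against DMSO (left) and PRMT5 shRNA against scramble (right); filled points have an adjusted p under 0.05. ID1, at -2.83, lies farthest left of all points under CEP701, and under PRMT5 shRNA the single filled point is HAMP at -2.72. Differences from groups under 60.0, such as that of SMAD7, depend on the added 10.

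With PRMT5 shRNA, 0.155% of the represented genes passed, with a median of 0.00, and 1 list gene did. HAMP, which encodes the iron hormone hepcidin and is a BMP target in liver, read 1988 and 2369 with scramble and 298 and 347 with PRMT5 shRNA. Its log2 difference was -2.72 ± 0.26 (limma, adjusted p = 0.00926), and the call was lost without scramble replicate 2, without a variance trend and with the shRNA arrays fitted alone (adjusted p of 6.43e-04 to 0.0952 over the 22 alternatives). For HAMP, SMAD7, SKIL and THBS1 the drug effect minus the knockdown effect also passed, as it did for 1.42% of represented genes (3.11, 3.86, 2.66 and 4.26, with adjusted p of 0.00573 to 0.0295), of the opposite sign to that of ID1. At SKIL 1 of 3 probe sets passed, with another at -0.23, and at THBS1 2 of 7 passed. None of the 4 genes passed without a variance trend. Without CEP701 replicate 1 or CEP701 replicate 2 none of these 4 passed, without DMSO replicate 1 2 did, and without DMSO replicate 2 1 did. The medians of the lists under PRMT5 shRNA lay between -0.44 for tissue-specific basic helix-loop-helix genes and 0.64 for BMP ligands. With signals below the median of all signals raised to it, these values became -0.17 and 0.03. Of the 5 ligands tested, 3 were below it on both scramble arrays.

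Between the control groups, BMP targets did not follow 1 direction. Of the genes so represented 45.6% passed for scramble against DMSO, 25.5% higher and 20.1% lower, with a median of 0.11. Of 11 BMP-induced transcripts 5 were higher and 3 lower in scramble cells (median 1.01, or 0.28 with signals under 60.0 raised to 60.0). BAMBI, a decoy receptor, was lower by 2.30 and SMAD6 by 1.79, as were ID1 and ID3, while HAMP was higher by 5.10, as was ID2. SMAD7 and RUNX2, whose DMSO signals were all under 60.0, were at least 5.32-fold and at least 35.1-fold higher with those signals raised to 60.0. SMAD1, the transducer, read 0.79 and 16.7 with DMSO and 1431 and 1305 with scramble, at least 22.8-fold higher on the same basis (adjusted p = 3.89e-06), and the ligand BMP6 read 540 and 719 against 65.2 and 82.6 (-2.92, adjusted p = 2.02e-04). All of these single genes kept their direction and passed in each alternative that gave a value, 21 or 22 a gene.

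**Figure D4:**
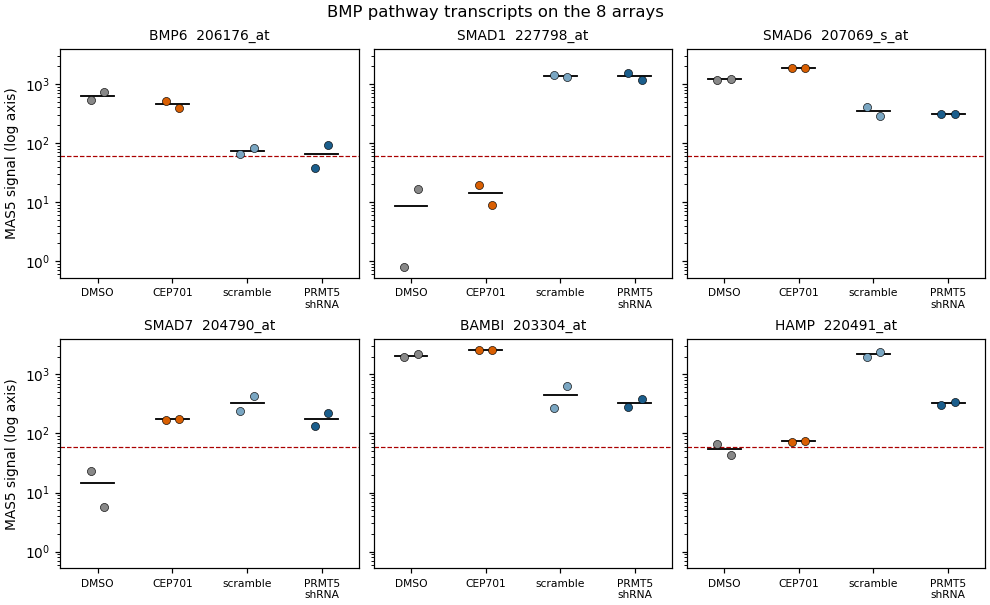
MAS5 signal (log axis) of BMP6, SMAD1, SMAD6, SMAD7, BAMBI and HAMP on the 8 arrays, with 1 point per array, a bar at the group mean and a dashed line at 60.0. BMP6, SMAD6 and BAMBI are higher in the drug arm, SMAD1 is under the line in the drug arm, and HAMP is highest with scramble, at 1988 and 2369.

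Upstream of these transcripts, 2 of 5 ligands were lower in scramble cells and none higher (median -0.94, or -0.23 with signals raised to 60.0), 3 of 10 receptors were higher and 2 lower (median -0.11), and SMAD1 was the 1 of 6 transducers that passed (median 0.08). Of 13 antagonists and SMAD inhibitors 6 were higher and 4 lower (median 0.59, or 0.33 with signals raised to 60.0).

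Other lists were also split between the controls. Of 8 tissue-specific basic helix-loop-helix genes 2 were higher and none lower (median 0.93, or 0.19 with signals raised to 60.0): LYL1, a relative of TAL1, by 0.60, and ASCL2, a stem cell factor, at least 2.87-fold from DMSO signals under 60.0. Of 16 targets and partners of ID proteins, 10 were higher and 1 lower in scramble cells (median 1.43, or 0.79 with signals raised to 60.0). Among them were the cyclin-dependent kinase inhibitors CDKN1A, which E proteins are known to activate, at 4.18 (adjusted p = 4.88e-07) and CDKN1C at 3.33 (adjusted p = 2.46e-06), while ETS1, a factor that ID proteins can block, was lower by 4.09 (adjusted p = 2.79e-07). Of 9 HES, HEY and BHLHE repressors, 4 were higher and 1 lower (median 1.25, or 0.38 with signals raised to 60.0), with HES1, the Notch target, at 2.39 and BHLHE40 at 2.77. Of 12 TAL1 complex partners 4 were higher and 4 lower (median 0.16), with the bridging protein LMO2 at 1.14 and the adaptor SSBP3 at -1.80. The 3 E proteins did not pass here either (log2 differences of -0.29 to 0.35). Of 13 upstream factors 3 were higher and 4 lower, with EGR1 at 3.76 and KLF4 at least 12.4-fold higher (from DMSO signals under 60.0) on one side and MYC, a known activator of ID2, at -2.23 on the other. Of 6 genes for ID protein turnover 4 were lower, among them USP1 at -1.24 and CDC20, an activator of the ubiquitin ligase APC/C, at -2.66.

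The genes whose pattern was most like that of a member were ranked by the root mean square difference of their 4 centred group means from the member's, over 14161 genes. For ID1 they were TEX15, SOBP, LOXL1-AS1, PCOLCE2 and TEAD4, with differences of 0.56 to 0.69 on the log2 scale. For ID2 they were SLC39A11, GDF11, SPMIP5, MMP12 and DDB2, with differences of 0.0036 to 0.067. For ID3 they were LOC101927263, RD3, MANEAL, GNG12 and GAD1, with differences of 0.11 to 0.16. The best match to ID1 was thus farther from it than any of the 5 from ID2 or ID3. By Pearson's r over the 8 arrays, the genes closest to ID1 were BLMH, YARS1, TK1, HYOU1 and DONSON. Those closest to ID2 were ALDH2, PLCG2, CDKN1C, NME3 and FOS, and those closest to ID3 were RBPMS2, LANCL3, MAGEA1, NT5C3B and PAFAH1B2. The 4 arrays of an arm lie close together, so such a correlation rests mainly on 1 contrast: 251 genes exceeded 0.95 with ID1, 1089 with ID2 and 680 with ID3. For ID4, at a signal near background, STK16 exceeded 0.95, followed by ABCB9, LY6G5C, ULK3 and EPCIP-AS1. By root mean square difference the nearest to ID4 were HMGN5, RNF170, TRNAU1AP, CPLANE2 and SPIN4.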

How the data were processed

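The authors deposited 1 linear signal intensity per probe set for each of the 8 arrays; the submitters' processing notes name MAS5 and Affymetrix Expression Console. The arrays carried biotin-labelled cRNA per the labels. Each array had been scaled to the same trimmed mean (500 with 2% left out at each end); detection calls and genome build are not given in the sources used here. Probe sets were named from the platform annotation, with symbols updated through Entrez identifiers; 41091 name 1 gene.

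To each signal 10 was added and log2 taken. Probe sets above 60.0 on at least 2 arrays were kept (26719). All arrays were fitted in 1 model of the 4 groups with limma 3.58.1 (eBayes with a trend; R 4.3.3), with 4 residual and 5.91 prior degrees of freedom, Benjamini-Hochberg adjustment over all tested probe sets within a contrast, and a threshold of 0.05. The number of arrays limits the precision; an exact test of 2 against 2 arrays cannot go below p = 0.333. The calculation was tested on simulated data. The members, lists and tests were chosen with earlier results of these data known. The rule for names took every ID probe set, list genes that passed or had the lowest p, and the 5 nearest genes by each measure of likeness; for scramble against DMSO, where 57 list genes passed, the examples were chosen after their values were seen, as were TCF4, TAL1, SMAD6 and BAMBI. The neighbouring genes, 3 contrasts that complete the pairs of groups, and the choice among levels shown were added after values were seen. Alternatives covered the added constant, the filter, 3 other scalings, the unit, the variance model, the arrays fitted, a replicate block and each array left out. The shRNA arrays share a title suffix by pair; deviations of such pairs from their group means correlated with r = 0.303 across probe sets, and those of same-numbered drug arrays with r = -0.0051.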

Additional observations from a re-analysis of the deposited data

Results flagged for a closer look

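The ID1 effects of the drug and of the knockdown differed by the test of the difference itself. The CEP701 effect minus the PRMT5 shRNA effect was -2.93 on the log2 scale (limma, adjusted p = 0.0171; 16 of 21 alternatives passed). Both CEP701 arrays lay below both DMSO arrays, whereas the PRMT5 shRNA and scramble arrays overlapped. The part played by the low ID1 signal in the shRNA arm, 102 to 177 on its 4 arrays, was not tested.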

How the results depend on the processing

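Over the 4 planned comparisons, 393 of 415 alternative values of the 5 tested ID probe sets kept their direction and their side of the threshold. In each of these comparisons but the difference between effects, the count of ID probe sets passed was the same under every alternative, except that 4 became 3 for scramble against DMSO where a setting left ID2 a single value. For that difference the count fell from 1 to 0 without a variance trend, and it was 0 to 1 when single arrays were left out. The cause was not tested.

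The values that changed sign had not passed as reported. For CEP701 against DMSO, ID2 at 201565_s_at became -0.10 under median scaling, -0.45 under scaling to the poly-A controls and -0.063 to 0.16 without single arrays. Under the poly-A scaling ID2 at 201566_x_at became -0.29 and ID4 -0.13. For the difference between effects that scaling gave -0.21 and -0.10 at ID2 and -0.26 at ID4, and leaving out arrays gave ID4 values of -0.0064 to 0.56. For PRMT5 shRNA against scramble, leaving out arrays gave -0.25 to 0.46 at ID1, -0.46 to 0.0056 at ID2 201566_x_at, -0.090 to 0.61 at ID3 and -0.18 to 0.38 at ID4. Leaving out arrays also gave ID4 values of -0.50 to 0.060 for scramble against DMSO and of -0.39 to 0.14 for PRMT5 shRNA against DMSO; over all alternatives these ranges were -0.62 to 0.060 and -0.49 to 0.14.

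With a replicate block by title suffix the ID counts were again 1, 0, 4 and 1, while the probe sets passed for PRMT5 shRNA against scramble rose from 35 to 243. The labels do not say that arrays of the same suffix are paired; with 2 pairs, the correlation of 0.303 between their deviations is a hint from the data and not from the design. Leaving out single arrays moved the number passed for CEP701 against DMSO from 1279 to between 32 and 1835. Scaling moved its balance from 800 higher and 479 lower to 509 and 872 (median scaling) and to 154 and 1860 (poly-A controls, which put the median of all probe sets at -0.41 rather than 0.10). For scramble against DMSO, 6401 higher and 4737 lower became 4388 and 7205, and 3473 and 6369. The direction of each called ID probe set held under all of these.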

Other observations

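A further probe set, 213931_at, names ID2 together with ID2B and was left out of the members for that reason. It read 229 and 189 with DMSO, 292 and 253 with CEP701, 2946 and 7126 with scramble and 2175 and 3020 with PRMT5 shRNA. Its 4 shRNA-arm values lay above its 4 drug-arm values, as at the ID2 probe sets. ID2-AS1, an antisense RNA named for ID2, read 37.2 and 43.4 with DMSO, 96.9 and 86.7 with CEP701, 128 and 165 with scramble and 114 and 152 with PRMT5 shRNA at 229756_at, while its groups overlapped at 236719_at.

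The nearest tested protein-coding genes on the chromosome, 3 on each side of a member, were examined for scramble against DMSO, where 25.5% of genes were higher and 20.1% lower. They were picked by position after the values of the members were known. Their distances were not alike. The farthest lay 133 kb from ID1 and 219 kb from ID3, but -1815 kb from ID2 and -1614 kb from ID4 (minus for lower coordinates). Of those named below, RSAD2 lay at -1784 kb and KIDINS220 at 36.6 kb from ID2. Of the 6 around ID1, 3 were lower and none higher, with the anti-apoptotic BCL2L1 at -0.83 and the spindle factor TPX2 at -2.08. Of the 6 around ID3, 4 were lower and none higher, with E2F2, a cell cycle factor, at -0.70. Of the 6 around ID2, 4 were higher and none lower, with KIDINS220 at 1.19 and the interferon-induced RSAD2 at 3.02. Around ID4, 1 of 6 was higher and none lower. Some calls behind these counts depended on the processing: RNF144A, counted as higher around ID2, passed in 11 of 22 alternatives (adjusted p up to 0.835), and around ID3 ELOA passed in 18 of 22, E2F2 in 19 of 22 and ASAP3 in 19 of 21. The other 8 called neighbours passed in all their alternatives. No test was made of these counts.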
